A study of Mus musculus with 12 samples.

Results

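The genes described are 37 markers of macrophages and monocytes, taken by symbol from a written list, out of 55453 gene symbols counted in RNA from mouse hearts. Of the 37, 36 had enough counts to be tested, and Ly6c2 did not. The 12 libraries fall into 4 groups of 3 mice, all of strain C57BL/6J and each mouse its own library. PDE10A knockout (KO) mice given doxorubicin (DOX) are mice 18, 19 and 20, and KO mice given vehicle are labelled veh_3393, veh_3394 and veh_3395. Wild-type (WT) mice given DOX are mice 21, 22 and 24, and WT mice given vehicle are mice 1, 2 and 3. DOX is an anthracycline cancer drug that injures the heart, and PDE10A is a phosphodiesterase that degrades cAMP and cGMP. The protocols in the labels give DOX as a bolus injection of 15 mg/kg into the peritoneum with a course of 7 days, and vehicle is the DMSO and cyclodextrin solvent of TP-10, an inhibitor of PDE10A, given under the skin. No library is labelled with TP-10. The protocols name male or female mice, and all 12 libraries had at most 0.236 CPM of Xist and at least 24.6 CPM of the Y-linked Ddx3y. Neither the age of the mice nor how the knockout was made is stated. KO vehicle mice carry numbers of another range than all other mice, and whether they were handled apart is not stated.

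The heart holds macrophages that settle before birth and renew in place, and others that come from blood monocytes. In mouse hearts, Timd4, Lyve1 and Folr2 mark the long-lived resident cells, while Ccr2, Ly6c2 and Plac8 mark monocytes and cells recently derived from them. Macrophages clear dying cells and complement-tagged debris, and after cardiac injury recruited cells take on inflammatory or lipid-handling states. Macrophages depend on signalling through the receptor Csf1r.

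Library totals ranged from 23846398 counts in KO DOX mouse 18 to 32921876 counts in WT DOX mouse 24, and levels are given in CPM, counts relative to library size after TMM scaling. The targeted gene goes against the labels: Pde10a had 8.27, 8.49 and 9.09 CPM in KO DOX hearts, 9.31, 11.9 and 9.13 CPM in KO vehicle hearts, 2.7, 2.08 and 1.79 CPM in WT DOX hearts and 3.38, 1 and 1.86 CPM in WT vehicle hearts. Every library labelled KO was above every library labelled WT, and gene-level counts do not show which part of the gene was read, so KO below means the library labelled KO and each direction rests on that label. Heart muscle transcripts were abundant throughout, with 8 cardiomyocyte markers summing to between 51100 and 75600 CPM. In WT vehicle mouse 2, mitochondrial genes took 19.5% of counts, against 24.4% to 33.6% in the other 11 libraries. KO DOX mouse 18 and the KO vehicle mouse veh_3394 were high in 6 atrial transcripts, at 2720 and 3530 CPM summed, against 444 to 980 CPM in the other 10 libraries.

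In each group a single library was the highest in most of the macrophage genes. KO DOX mouse 18 had the highest level of its group in 36 of 36 tested members, and WT vehicle mouse 2 in 30 of 36. The KO vehicle mouse veh_3394, the other library high in atrial transcripts, was highest in 26 of 36, and WT DOX mouse 22 in 22 of 36. The 37 members summed to 664, 339 and 354 CPM in KO DOX hearts, 576, 637 and 512 CPM in KO vehicle hearts, 552, 652 and 533 CPM in WT DOX hearts and 416, 841 and 521 CPM in WT vehicle hearts. KO DOX mouse 18 lay 0.32 above each gene's mean over the 12 libraries (median over 36 members, log2 scale), and its group mates lay at -0.61 and -0.46. WT vehicle mouse 2 lay at 0.51, and its group mates at -0.36 and -0.01. The KO vehicle mouse veh_3394 lay at 0.26, with group mates at 0.11 and -0.03, and WT DOX mouse 22 at 0.29, with group mates at 0.02 and -0.12. In bulk tissue, fewer cells of a type and less RNA per cell cannot be told apart, so a lower level may be either. The same library of KO DOX mouse 18 was high in mesothelial markers (23.8 CPM over 5 genes), as was that of WT vehicle mouse 2 (26.8 CPM), against 3.88 to 16.2 CPM in the other 10 libraries. KO DOX mouse 18 also had the highest sum of 8 fibroblast markers, 1510 CPM, with 699 and 799 CPM in its group mates, and its 6 erythroid genes summed to 0.748 CPM, with 213 and 60.8 CPM in its group mates. The part of these tissues, cells or blood in the macrophage levels was not tested.

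**Figure D1:**
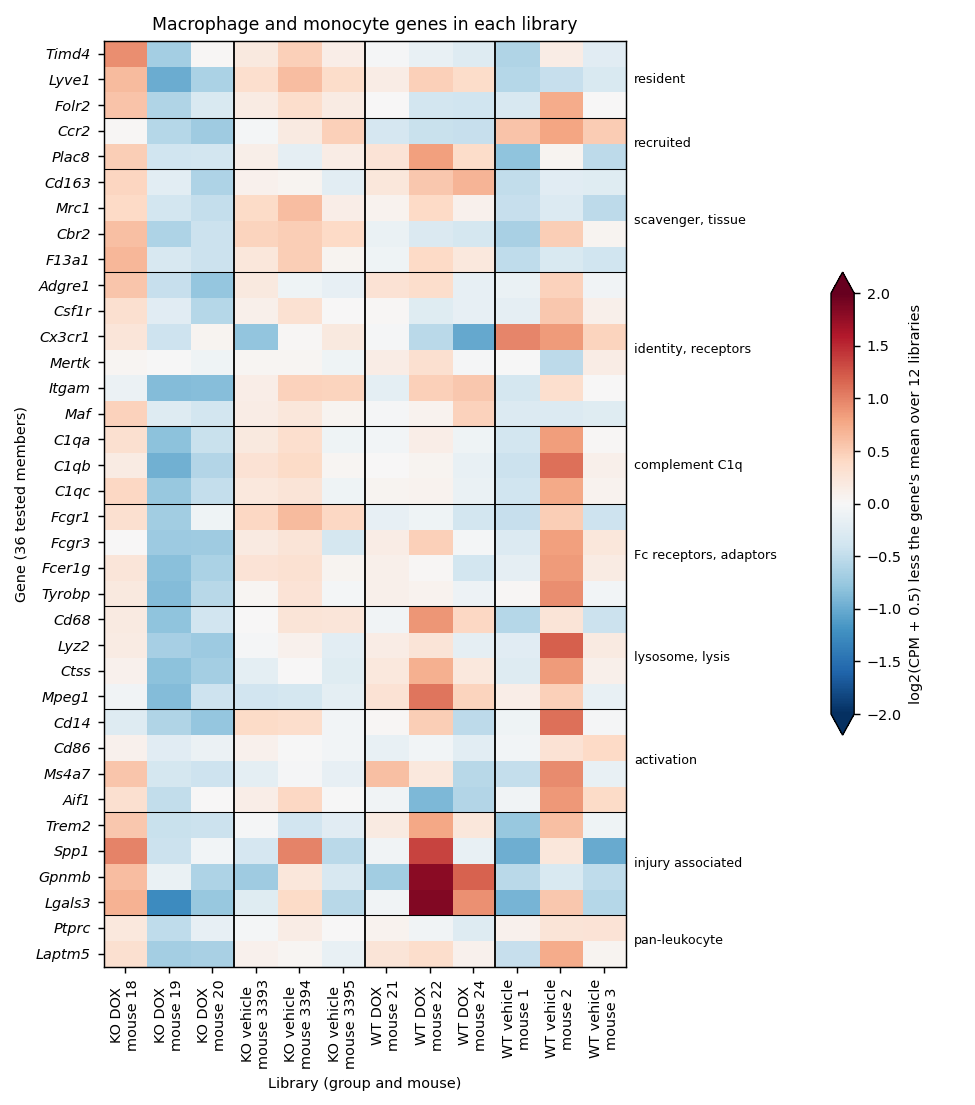
Levels of the 36 tested macrophage and monocyte genes in each of the 12 libraries (columns, by group and mouse), as log2(CPM + 0.5) less the gene's mean over all libraries, with genes in rows by role. KO DOX mouse 18 and WT vehicle mouse 2 lie above their group mates in most genes, with medians of 0.32 and 0.51, except that WT vehicle mouse 2 is below the mean in 7 genes, among them Lyve1, Cd163, Mrc1, F13a1 and Maf, while the columns of the other KO DOX mice are cool, with medians of -0.61 and -0.46.

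The members spanned a wide range of abundance. Per kilobase of exon and averaged over the 12 libraries, the secreted lysozyme Lyz2 was highest at 86.9 CPM per kb. The complement genes C1qa, C1qb and C1qc followed at 44.5, 36.8 and 18.8 CPM per kb. The lowest were the monocyte markers Ly6c2 at 0.0705, Ccr2 at 0.281 and Plac8 at 0.31 CPM per kb, with the leukocyte phosphatase Ptprc between them at 0.309 CPM per kb. Of the resident markers, Lyve1 at 9.58 and Folr2 at 5.08 CPM per kb were far more abundant than the recruited ones on this scale. Timd4, at 0.717 CPM per kb, was nearer to them.

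Ly6c2 encodes a surface protein of inflammatory monocytes and is the member whose counts are the least certain, because Ly6c1, made by endothelium, is nearly identical to it. Both lie on chromosome 15. Their coding sequences are 393 bases long, differ at 9 bases and are 97.7% identical, and 162 of the 344 windows of 50 bases in Ly6c2 (47.1%) also occur in Ly6c1. The first 90 coding bases, from GENCODE M21 transcripts on GRCm38, are shown because they hold 6 of the 9 differences, which are in capitals.
Ly6c2: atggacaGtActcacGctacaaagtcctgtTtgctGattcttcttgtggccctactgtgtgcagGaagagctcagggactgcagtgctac
Ly6c1: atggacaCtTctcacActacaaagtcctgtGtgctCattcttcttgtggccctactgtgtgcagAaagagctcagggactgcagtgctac

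Promoters were read for 29 of the 37 members from RefSeq (GRCm38.p6) as the 250 bases before each start, 37 windows in all. The core GGAAGT, bound by PU.1 and other ETS factors of myeloid cells, was searched on both strands and occurred in 15 of 37 member windows (40.5%), against 6485 of all 32851 windows (19.7%). The AP-1 sequence TGACTCA was in 5.41% of member windows and 4.46% of all windows. The M-box TCATGTG, recognised by MITF and TFE factors, was in 5.41% and 3.25%. Overlap between the 3 motifs was allowed, and a match is a run of letters and not a site of binding. Of the genes whose windows lie outside their own GENCODE exons, 3 are shown: Cd163 and Gpnmb, the members called higher with DOX in WT hearts, and C1qb, whose window holds matches to 2 of the 3 motifs. The capitals in C1qb mark TCATGTG, beginning 231 bases before the start, and ACTTCC, which is GGAAGT on the other strand, beginning 53 bases before it. None of the 3 motifs occurs in the windows of Cd163 and Gpnmb. Cd163 is at chr6:124304401-124304650 on the plus strand, Gpnmb at chr6:49036268-49036517 on the plus strand and C1qb at chr4:136886201-136886450 on the minus strand.
Cd163: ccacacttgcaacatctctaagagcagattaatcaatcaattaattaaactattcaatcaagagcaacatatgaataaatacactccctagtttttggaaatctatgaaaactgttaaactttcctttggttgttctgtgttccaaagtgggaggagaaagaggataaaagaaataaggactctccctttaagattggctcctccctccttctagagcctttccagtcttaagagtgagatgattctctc
Gpnmb: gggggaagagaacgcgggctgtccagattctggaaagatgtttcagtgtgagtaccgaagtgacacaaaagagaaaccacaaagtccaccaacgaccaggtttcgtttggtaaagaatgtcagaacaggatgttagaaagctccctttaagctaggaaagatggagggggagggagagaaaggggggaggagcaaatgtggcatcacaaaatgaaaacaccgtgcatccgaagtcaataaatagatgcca
C1qb: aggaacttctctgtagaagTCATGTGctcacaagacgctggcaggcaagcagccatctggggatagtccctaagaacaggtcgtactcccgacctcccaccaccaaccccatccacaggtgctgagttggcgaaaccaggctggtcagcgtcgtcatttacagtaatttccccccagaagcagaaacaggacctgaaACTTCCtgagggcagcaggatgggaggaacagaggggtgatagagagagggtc

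DOX against vehicle in WT hearts was the comparison in which members passed the test. The chemokine receptors Ccr2 and Cx3cr1 and the cytoskeletal protein gene Aif1 fell in WT DOX hearts, and the haemoglobin scavenger receptor Cd163 and the glycoprotein gene Gpnmb rose. These were 2 members called higher and 3 called lower of 36 tested (13.9%), at an adjusted p below 0.05 in edgeR's quasi-likelihood test. Over all 14757 genes tested, 18.6% were called, 9.39% higher and 9.2% lower, so the members' share was no higher than the background. The median log2 fold change of the 36 members was -0.04, against -0.000 over all genes, and 18 members had a positive and 18 a negative sign. At an unadjusted p below 0.05 stood 13 members (36.1%), the same share as all genes (36.1%).

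The called members lie on chromosomes 6, 9 and 17 of GRCm38 (GENCODE M21). Ccr2 is at chr9:124101950-124113557 on the plus strand and Cx3cr1 at chr9:119901616-120069879 on the minus strand. Aif1 is at chr17:35170991-35176068 on the minus strand, Cd163 at chr6:124304656-124330527 and Gpnmb at chr6:49036546-49070929, both on the plus strand.

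Ccr2, the receptor through which monocytes leave the bone marrow and enter tissue, had 1.29, 1.17 and 1.15 CPM in WT DOX hearts, against 2.85, 3.42 and 2.74 CPM in WT vehicle hearts. All WT DOX libraries lay below all WT vehicle libraries, and the 3 WT DOX values lay close together. Ccr2 fell by 1.32 on the log2 scale (SE 0.27, adjusted p = 0.0155). In KO hearts it had 1.81, 1.02 and 0.886 CPM with DOX and 1.71, 2.08 and 2.65 CPM with vehicle. There the highest DOX library overlapped the vehicle libraries, and the difference of -0.79 (SE 0.27) had an adjusted p of 0.69.

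Cx3cr1, the receptor for fractalkine on patrolling monocytes and many tissue macrophages, had 1.26, 0.728 and 0.374 CPM in WT DOX hearts, against 3.03, 2.73 and 1.94 CPM in WT vehicle hearts. The groups did not overlap, and the log2 fold change was -1.72 (SE 0.45, adjusted p = 0.0262). Its levels in KO hearts were 1.61, 0.842 and 1.35 CPM with DOX and 0.532, 1.32 and 1.54 CPM with vehicle. Those KO groups overlapped, and every KO library of either treatment lay below the lowest WT vehicle library. Aif1, which encodes the calcium-binding protein Iba1, had 1.29, 0.51 and 0.749 CPM in WT DOX hearts, against 1.29, 2.94 and 1.94 CPM in WT vehicle hearts. WT DOX mouse 21 and WT vehicle mouse 1 had the same rounded level, and the other WT DOX libraries lay below every WT vehicle library. The log2 fold change of Aif1 was -1.28 (SE 0.40, adjusted p = 0.0441).

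Cd163 had 22.4, 27.9 and 30.8 CPM in WT DOX hearts, against 13.4, 16.2 and 16.1 CPM in WT vehicle hearts. All WT DOX libraries were higher, by 0.83 on the log2 scale (SE 0.22, adjusted p = 0.028). In KO hearts it had 25.8, 16.3 and 12.3 CPM with DOX, against 20.1, 19.8 and 16.3 CPM with vehicle, and the groups overlapped. Gpnmb, a glycoprotein of lipid-laden and phagocytic macrophages, had 1.47, 10.6 and 6.68 CPM in WT DOX hearts, against 1.69, 2.07 and 1.75 CPM in WT vehicle hearts. WT DOX mouse 21 lay below all 3 vehicle libraries and the other WT DOX mice far above them, so the groups overlapped. The log2 fold change of Gpnmb was 1.76 (SE 0.57, adjusted p = 0.0494).

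None of these 5 calls was made when WT DOX mouse 22, WT DOX mouse 24 or WT vehicle mouse 2 was left out. All genes called then made up 1.23%, 1.22% and 3.43% of those tested. Without WT vehicle mouse 3 only Ccr2 was called (4.92% of all genes). Without KO DOX mouse 20 or any of the KO vehicle mice the count was 3 (12.8% to 13.8% of all genes), and without KO DOX mouse 18 it was 10 (17% of all genes). Without WT DOX mouse 22 the value of Gpnmb was 1.16. A fit of the 6 WT libraries alone called 0 members (0.141% of all genes), 12 of them at an unadjusted p below 0.05.

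**Figure D2:**
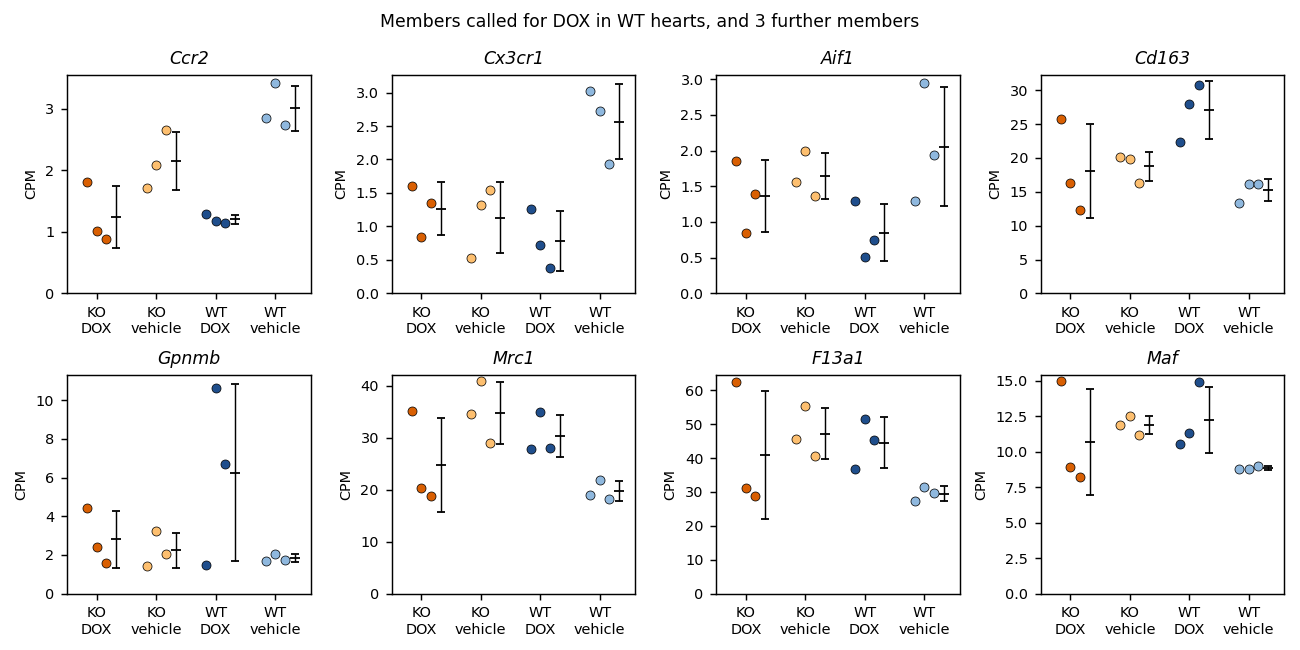
CPM of the 5 genes called for DOX in WT hearts and of Mrc1, F13a1 and Maf, with 1 point per library, and the mean ± SD of each group of 3 beside its points. Ccr2 in WT DOX hearts sits between 1.15 and 1.29 CPM, below all WT vehicle hearts, while Gpnmb is high in only 2 of 3 WT DOX libraries, at 10.6 and 6.68 CPM.

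Among all tested members, 6 had every WT DOX library above every WT vehicle library and 3 had every one below, where 16.8% and 15.8% of all genes did so. The 6 were Lyve1, Plac8, Cd163, Mrc1, F13a1 and Maf, and the 3 were Ccr2, Cx3cr1 and Ptprc. Mrc1, the mannose receptor of tissue macrophages, had 27.8, 34.9 and 28 CPM in WT DOX hearts, against 19, 21.8 and 18.2 CPM in WT vehicle hearts. F13a1, the factor XIII subunit made by perivascular macrophages, had 36.8, 51.6 and 45.2 CPM in WT DOX hearts, against 27.2, 31.5 and 29.7 CPM in WT vehicle hearts. Neither group pair overlapped, but Mrc1 at 0.62 (SE 0.21, adjusted p = 0.0598) and F13a1 at 0.60 (SE 0.25, adjusted p = 0.106) missed the threshold in the main edgeR test. Maf is a transcription factor of resident macrophages that other heart cells also make. It had 10.5, 11.3 and 14.9 CPM in WT DOX hearts, against 8.77, 8.77 and 8.97 CPM in WT vehicle hearts. The difference was 0.47 (SE 0.20, adjusted p = 0.119). With all libraries, limma-voom called Mrc1 (adjusted p = 0.00726), F13a1 (0.0272) and Maf (0.0458). DESeq2 called only Mrc1 of these 3 (adjusted p = 0.0285). Without KO DOX mouse 18, a library of neither group, edgeR called Mrc1 (adjusted p = 0.0209), F13a1 (0.0238) and Maf (0.0383). Leaving out any other single library called none of them.

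None of the resident markers passed the main edgeR test with DOX in WT. Lyve1, a hyaluronan receptor, had 29.2, 36.8 and 34.1 CPM in WT DOX hearts, against 17.5, 18.9 and 21.2 CPM in WT vehicle hearts. Its 3 WT DOX libraries were all above the WT vehicle ones, by 0.80 on the log2 scale (SE 0.32), with an adjusted p of 0.092. With all libraries DESeq2 (adjusted p = 0.0446) and limma-voom (adjusted p = 0.0283) called Lyve1. So did edgeR without KO DOX mouse 18 (adjusted p = 0.0107), but not without any other single library. An edgeR fit of the WT groups alone did not call it (adjusted p = 0.0638). Timd4, a receptor for phosphatidylserine on dying cells, had 1.44, 1.27 and 1.15 CPM in WT DOX hearts, against 0.801, 1.69 and 1.19 CPM in WT vehicle hearts, which overlap. Folr2, a folate receptor, had 7.55, 5.75 and 5.59 CPM in WT DOX hearts, against 5.92, 12.9 and 7.58 CPM in WT vehicle hearts, again overlapping. Timd4 differed by 0.05 (SE 0.44) and Folr2 by -0.49 (SE 0.32), neither past the threshold.

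Lyve1 is also made by lymphatic endothelium, whose 6 markers summed to 81.2, 93.9 and 122 CPM in WT DOX hearts and 98.5, 60.7 and 71.4 CPM in WT vehicle hearts. Of 5 tested lymphatic markers, 0 were called for DOX in WT at a median log2 fold change of 0.19, and Ccl21a was at 0 in all 12 libraries. The part of lymphatic cells in Lyve1 was not tested. Of Folr2, 63.1% of the exon bases are shared with Gm10602 on the opposite strand, and how strand was counted is not given, so its counts are uncertain.

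The recruited markers did not move together either. Plac8, a small protein of monocytes, neutrophils and plasmacytoid dendritic cells, had 0.647, 1.17 and 0.72 CPM in WT DOX hearts, against 0.0445, 0.484 and 0.159 CPM in WT vehicle hearts. Every WT DOX library was higher, by 1.79 on the log2 scale (SE 0.64, adjusted p = 0.0676), on 75 counts against 19. With all libraries DESeq2 (adjusted p = 0.0426) and limma-voom (adjusted p = 0.00171) called Plac8. So did edgeR without KO DOX mouse 18 (adjusted p = 0.0437), but not without any other single library. Without WT vehicle mouse 2 the difference was 2.96 and without WT vehicle mouse 1 it was 1.35. Ly6c2 had 6, 23 and 16 counts in WT DOX hearts, against 2, 6 and 0 counts in WT vehicle hearts. Its lowest WT DOX library, at 0.216 CPM, was barely above its highest WT vehicle library, at 0.207 CPM. In KO hearts Ly6c2 stayed at 2, 3 and 1 counts with DOX, against 2, 2 and 3 counts with vehicle. All 6 KO libraries were at or under 3 counts, so a difference between the KO groups was not detectable at this depth. In an edgeR fit with no filter on low counts, Ly6c2 rose by 2.25 with DOX in WT hearts (adjusted p = 0.0125). It was lower by 2.66 in KO DOX against WT DOX hearts (adjusted p = 0.00798). These comparisons called 11.8% and 3.9% of all genes in that fit. Its adjusted p were far smaller than those of the main fit, for Lyve1 with DOX in WT 5.78e-07 against 0.092. The interaction of Ly6c2 there was -2.51 with an adjusted p of 0.309, so a difference between the genotypes was not called. Ly6c1, from which reads could be assigned, had 93.6 ± 15.8 CPM in WT DOX hearts and 101 ± 13.1 CPM in WT vehicle hearts (SD, n = 3 each), a log2 difference of -0.11 with an adjusted p of 0.657.

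Ccr2 thus fell in the group in which Plac8 and Ly6c2 had their highest means, 0.844 and 0.505 CPM. By library, Plac8 in KO DOX mouse 18, at 0.827 CPM, lay above WT DOX mice 21 and 24. The mean log2(CPM + 0.5) of the recruited markers less that of the resident markers was -2.51 ± 0.25 in WT DOX hearts and -2.55 ± 0.17 in WT vehicle hearts (SD, n = 3 each), a difference of 0.04. In KO hearts it was -2.86 ± 0.50 with DOX and -3.02 ± 0.25 with vehicle, a difference of 0.16. Both differences are smaller than the spread between mice. Without Ly6c2 the WT difference was -0.22, and with a pseudocount of 0.1 CPM it was 0.53.

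**Figure D3:**
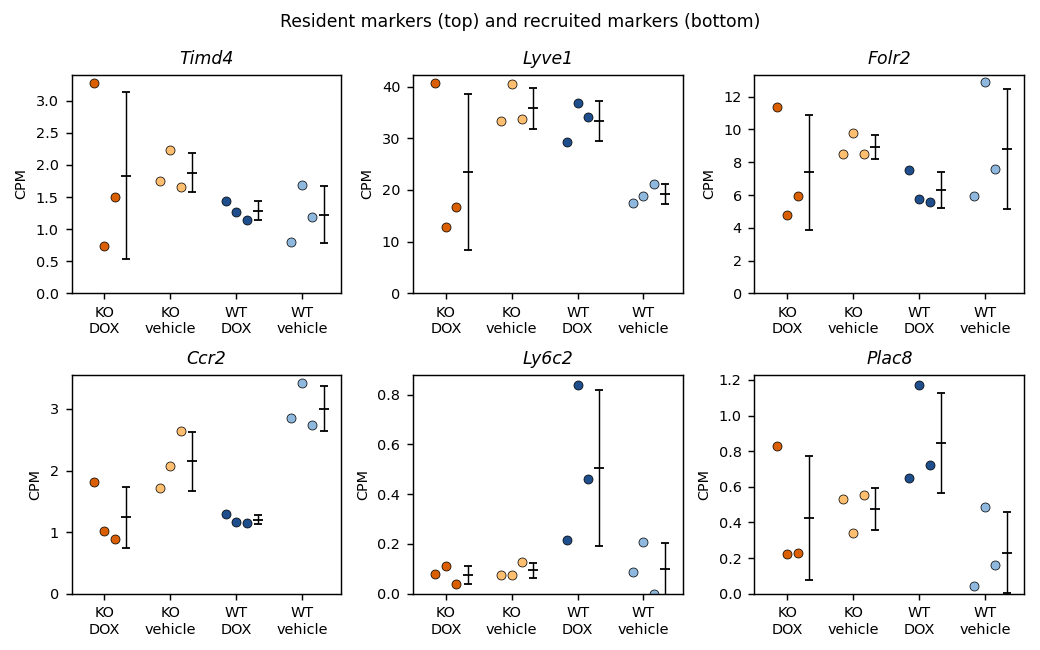
CPM of the resident markers Timd4, Lyve1 and Folr2 (top) and the recruited markers Ccr2, Ly6c2 and Plac8 (bottom), with 1 point per library and the mean ± SD of each group of 3. Lyve1 is above 29 CPM in all WT DOX and KO vehicle hearts and below 22 CPM in all WT vehicle hearts, and KO DOX hearts hold both ends of its range, with mouse 18 at 40.7 CPM and its group mates at 12.9 and 16.7 CPM.

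Markers of other leukocytes, and MHC class II genes, moved in the same WT hearts, and other leukocytes also make some of the members. Neutrophil markers rose with DOX in WT in 5 of 6 tested, led by Cxcr2 at 5.15, on only 2 counts in WT vehicle hearts, S100a8 at 4.03 and S100a9 at 3.41 on the log2 scale (adjusted p = 0.00858 for each). Their 10 markers summed to 7.87, 37.4 and 30.3 CPM in WT DOX hearts, against 2.49 to 3.17 CPM in WT vehicle hearts, 4.1 to 4.66 CPM in KO DOX hearts and 5.63 to 9.58 CPM in KO vehicle hearts. Ly6g, the most specific of them, was at 0 in 8 of the 12 libraries. Plac8, Itgam, Lyz2 and Cd14 are also made by neutrophils. Dendritic cell and MHC class II genes fell in 7 of 8 tested with DOX in WT, among them H2-Ab1 by 3.05, Ciita by 3.22 and Cd209a by 3.62. Cd209a had only 3 counts in WT DOX hearts and 36 in WT vehicle hearts, and Ciita had 12 and 102. The sizes of these 2 falls are therefore uncertain. Their 12 genes summed to 118, 26.5 and 20.6 CPM in WT DOX hearts, against 228, 446 and 275 CPM in WT vehicle hearts, and to 51.8 to 74 CPM in KO DOX and 116 to 136 CPM in KO vehicle hearts. Of the 446 CPM in WT vehicle mouse 2, Cd74 held 197, H2-Aa 84.8, H2-Eb1 74.1 and H2-Ab1 70.2 CPM, so MHC class II genes made up most of that sum. Ccr2, Cx3cr1 and Aif1 are expressed in dendritic cells as well. Of the list, Xcr1 and Clec9a, which mark a subset of conventional dendritic cells, were at or below 0.238 CPM in every library, and Zbtb46, a transcription factor of conventional dendritic cells that endothelium also makes, fell by 0.55 with DOX in WT (adjusted p = 0.0305). Which cells, macrophages among them, made the MHC class II transcripts was not tested, nor was the part of neutrophils or dendritic cells in the members' changes.

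**Figure D4:**
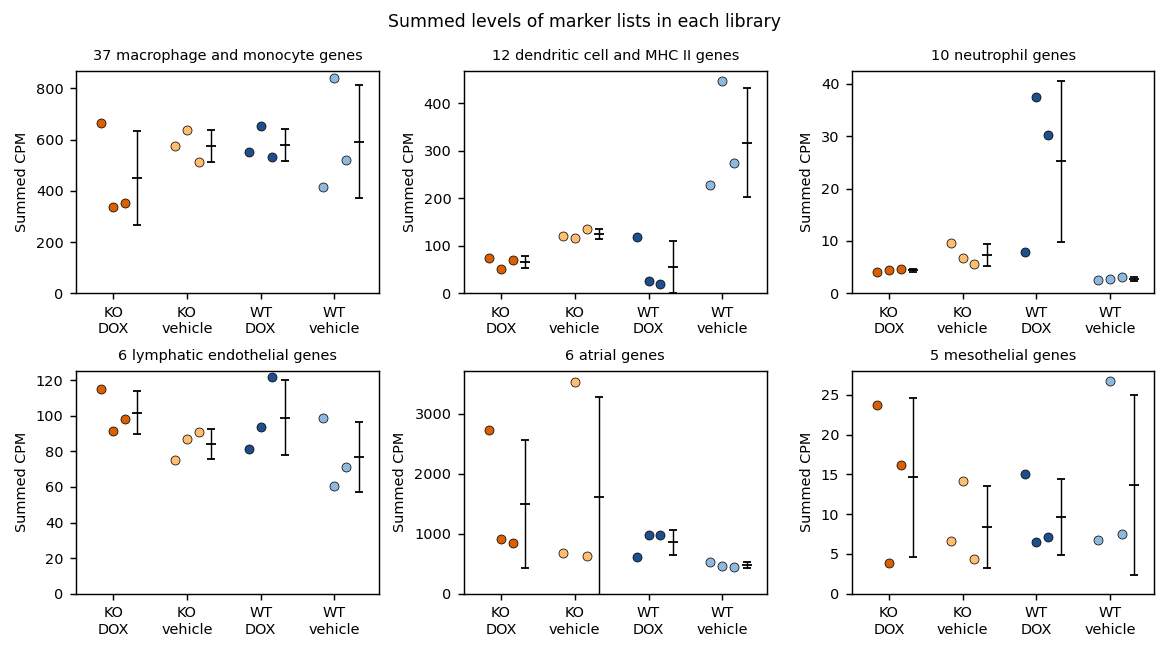
Summed CPM in each library of the 37 macrophage and monocyte genes and of 5 marker lists of other cell types, with the mean ± SD of each group of 3. The macrophage sum overlaps among all 4 groups, between 339 and 841 CPM, while in WT hearts the MHC class II sum is lower with DOX than with vehicle in all 3 mice and the neutrophil sum is higher in all 3.

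The scavenger and tissue-type genes besides Cd163, Mrc1 and F13a1 include Cbr2, a carbonyl reductase, which had a log2 fold change of -0.31 with DOX in WT (adjusted p = 0.499). Of the identity genes, Csf1r, the growth factor receptor of the lineage, had 31.7, 26.5 and 27.7 CPM in WT DOX hearts, against 27.5, 45.7 and 33.4 CPM in WT vehicle hearts. Its groups overlapped, and its fold changes lay between -0.31 and 0.06 over the 5 comparisons. Adgre1, the gene of F4/80, differed by 0.07 (SE 0.32) with DOX in WT and Mertk, a receptor for dying cells, by 0.27 (SE 0.16). The integrin subunit gene Itgam, of CD11b, had 1.8, 3.17 and 3.31 CPM in WT DOX hearts, against 1.56, 2.83 and 2.14 CPM in WT vehicle hearts, which overlap. Of the exon bases of Itgam, 68.7% lie within Gm49368 on the same strand, which had no count in any library. How reads in shared bases were counted is not given, so the counts of Itgam are uncertain as well.

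The complement genes encode the 3 chains of C1q, which opsonises debris, and lie next to each other on chromosome 4. C1qa had 42.9, 49 and 41.9 CPM in WT DOX hearts, against 34.5, 80.1 and 45.1 CPM in WT vehicle hearts. WT vehicle mouse 2 was the highest and mouse 1 the lowest of the 6, so the WT DOX values fell inside the vehicle range. With DOX in WT the 3 genes differed by -0.43 to -0.24 and in KO by -0.64 to -0.32, with 0 of 3 called in any comparison.

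Of the Fc receptor genes and their adaptors, Fcgr3, a receptor for IgG, had 14.3, 18.1 and 12.5 CPM in WT DOX hearts, against 10.5, 23.1 and 15.2 CPM in WT vehicle hearts. Its groups overlapped. With Fcgr1, the signalling chain gene Fcer1g and the adaptor Tyrobp, the role had log2 fold changes of -0.45 to -0.12 with DOX in WT and of -0.72 to -0.47 with DOX in KO, with 0 of 4 called. Among lysosome and lysis genes, Lyz2 had 120, 129 and 94.6 CPM in WT DOX hearts, against 91.5, 248 and 122 CPM in WT vehicle hearts, with WT vehicle mouse 2 far above the rest. Cd68, a lysosomal glycoprotein, differed by 0.69 (SE 0.30, adjusted p = 0.124) and Mpeg1, the pore-forming perforin-2, by 0.49 (SE 0.25, adjusted p = 0.173). Ctss, a cathepsin of antigen processing, differed by 0.08.

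Of the activation genes besides Aif1, the lipopolysaccharide co-receptor Cd14 and the costimulator Cd86 had log2 fold changes of -0.44 and -0.45 with DOX in WT, and Ms4a7 of -0.13. Of the injury-associated genes besides Gpnmb, 0 of 3 passed the test. Lgals3, which encodes galectin-3, had 3.67, 15.2 and 7.72 CPM in WT DOX hearts, against 1.78, 5.8 and 2.42 CPM in WT vehicle hearts. WT DOX mouse 22 was the highest of the 12 libraries, yet WT vehicle mouse 2 lay above WT DOX mouse 21, and the difference was 1.39 (SE 0.63, adjusted p = 0.13), with a range of 0.77 to 2.07 over the alternatives. Spp1, the gene of osteopontin, differed by 1.72 (SE 0.97, adjusted p = 0.219) on 104 counts in WT DOX and 29 in WT vehicle hearts, with a range of 0.68 to 3.76 over the alternatives. Trem2, a lipid-sensing receptor, differed by 0.47 (SE 0.44). The pan-leukocyte genes Ptprc and Laptm5 differed by -0.32 and 0.04, and neither passed the test.

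**Figure D5:**
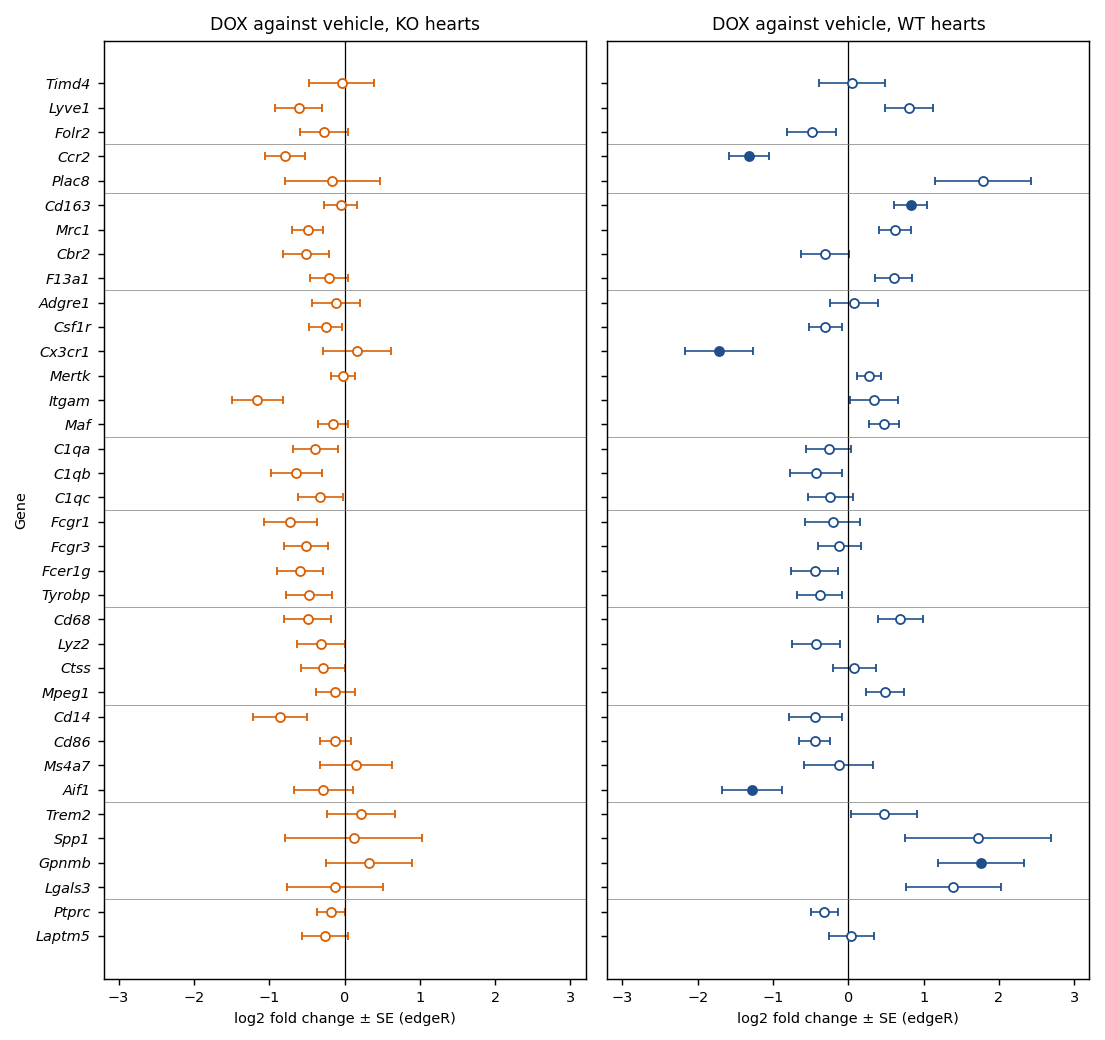
Log2 fold changes (± SE, edgeR) of the 36 tested members for DOX against vehicle in KO hearts (left) and WT hearts (right), with role groups divided by grey lines and filled points for an adjusted p below 0.05. In KO hearts no point is filled and 31 of 36 lie below 0, between -1.16 and 0.32, while in WT hearts 5 are filled and the points run from -1.72 to 1.79.

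DOX against vehicle in KO hearts gave 0 calls among 36 members, against 0.0136% of all genes, with adjusted p from 0.559 to 0.997 in edgeR, and DESeq2 called 0 (0.448% of all genes) and limma-voom 1 (0.596% of all genes). The signs leaned one way: 31 of 36 members had a negative log2 fold change, against 48.3% of all genes. The members' median was -0.27, against 0.007 over all genes. The members moved together by library: of the KO DOX mice, 18 was highest in all 36, 19 lowest in 24 and 20 lowest in 12. The signs are therefore not 36 separate observations, and their lean was not tested. At an unadjusted p below 0.05 stood 4 members (11.1%), against 5.35% of all genes. In 3 members, Itgam, Fcgr1 and Cd14, all KO DOX libraries lay below all KO vehicle libraries, and 0 were the other way round, where 8.05% and 8.27% of all genes were so placed. Itgam had 1.93, 0.951 and 0.963 CPM in KO DOX hearts, against 2.4, 3.13 and 3.07 CPM in KO vehicle hearts. The difference was -1.16 (SE 0.34), with an adjusted p of 0.559. KO DOX mouse 18, the mouse with atrial transcripts at 2720 CPM, had the highest macrophage levels of its group, so its group means have a wide SD. Lyve1 is the clearest case, at 40.7, 12.9 and 16.7 CPM in KO DOX hearts and 33.3, 40.4 and 33.8 CPM in KO vehicle hearts. Its difference was -0.61 (SE 0.31, adjusted p = 0.997) with all mice, and -1.28 (adjusted p = 0.0173) when KO DOX mouse 18 was left out, -0.32 without mouse 19 and -0.43 without mouse 20, the last 2 with an adjusted p of 0.999.

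KO against WT under vehicle gave 0 calls among the members in edgeR, against 2.88% of all genes, and DESeq2 called 2 of 34 members with an adjusted p (13.5% of all genes) and limma-voom 10 of 36 (35.1% of all genes). This comparison and DOX in WT share the WT vehicle mice, so their values are not independent. In 5 members every KO vehicle library lay above every WT vehicle library, and in 3 every one lay below, where 16.5% and 14.8% of all genes did so. The 5 were Lyve1, Cd163, Mrc1, F13a1 and Maf, and the 3 were Ccr2, Cx3cr1 and Mpeg1. Mrc1 had 34.5, 40.8 and 28.9 CPM in KO vehicle hearts, against 19, 21.8 and 18.2 CPM in WT vehicle hearts. All KO vehicle mice were clearly above, by 0.82 on the log2 scale (SE 0.21), with an adjusted p of 0.0554. Lyve1 differed by 0.90 (SE 0.32, adjusted p = 0.105) and F13a1, at 45.7, 55.3 and 40.6 CPM in KO vehicle hearts, by 0.68 (SE 0.25, adjusted p = 0.114). Without KO DOX mouse 18, a library of neither group, these 3 passed, with adjusted p of 0.0189 for Mrc1, 0.00881 for Lyve1 and 0.0355 for F13a1, and all genes called made up 2.24%. The same 3 passed in an edgeR fit of the 2 vehicle groups alone (1.57% of all genes), with adjusted p of 0.0373 for Mrc1, 0.0185 for Lyve1 and 0.0493 for F13a1. The 2 members called by DESeq2 were Lyve1 (adjusted p = 0.036) and Mrc1 (adjusted p = 0.00708). Without WT vehicle mouse 1 only Mrc1 passed (17.7% of all genes). Ccr2 differed by -0.49 (SE 0.26, adjusted p = 0.254) and Cx3cr1 by -1.19 (SE 0.44, adjusted p = 0.118). The median of the members was -0.10, against 0.017 over all genes, and 4 members (11.1%) had an unadjusted p below 0.05, against 26% of all genes.

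KO against WT under DOX gave 0 calls among the members in edgeR, against 0.42% of all genes, and DESeq2 called 2 (3.34% of all genes) and limma-voom 6 (6.71% of all genes). The median was -0.30, against 0.015 over all genes, and 27 of 36 signs were negative, against 47.7% of all genes. These signs rest on the same KO DOX libraries and are not separate observations either. In 2 members, Ctss and Mpeg1, every KO DOX library lay below every WT DOX library, and in 0 above, where 9.75% and 9.86% of all genes were so placed. Mpeg1 had 7.8, 4.28 and 6.01 CPM in KO DOX hearts, against 10.1, 17.8 and 11.4 CPM in WT DOX hearts, a difference of -1.12 (SE 0.25, adjusted p = 0.0757). Ctss had 16.9, 8.78 and 9.71 CPM in KO DOX hearts, against 18.4, 26.2 and 18.6 CPM in WT DOX hearts, a difference of -0.84 (SE 0.29, adjusted p = 0.207). When WT DOX mouse 21 was left out, 4 members were called lower (4.84% of all genes called in either direction), Mpeg1 at -1.27 (adjusted p = 0.0221), Itgam at -1.34 (adjusted p = 0.0403), Gpnmb and Ly6c2. Ly6c2 was not tested with all libraries. It passed the count filter of this fit only through WT DOX mice 22 and 24, at 23 and 16 counts. Its call against that same group is therefore no independent result. Lyve1 differed by -0.51 (adjusted p = 0.461) with all libraries and by -1.17 (adjusted p = 0.0105) without KO DOX mouse 18, where it was the only member called (0.234% of all genes). Without mouse 19 it differed by -0.22 and without mouse 20 by -0.33. At an unadjusted p below 0.05 stood 7 members (19.4%), against 15.5% of all genes.

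The interaction, which subtracts the WT response to DOX from the KO response, was called in 0 members, against 0.21% of all genes, with the smallest adjusted p at 0.144 for Mrc1 in edgeR. DESeq2 called 2 members (2.58% of all genes) and limma-voom 10 (13.9% of all genes). Its log2 value was -1.11 (SE 0.30) for Mrc1, -1.41 (SE 0.45, adjusted p = 0.2) for Lyve1, -0.88 (SE 0.31, adjusted p = 0.238) for Cd163 and 1.89 (SE 0.63, adjusted p = 0.222) for Cx3cr1. The members' median was -0.27, against -0.002 over all genes, with 27 of 36 negative. Because the members moved together by library, these signs are not separate observations. An unadjusted p below 0.05 was found in 7 members (19.4%), against 16% of all genes. Without KO DOX mouse 18, 4 scavenger and resident genes were called: Lyve1 at -2.08 (adjusted p = 0.00581), Mrc1 at -1.45 (adjusted p = 0.0229), F13a1 at -1.25 (adjusted p = 0.0352) and Cd163 at -1.22 (adjusted p = 0.0468). All genes called then made up 0.481%, and the 2 remaining KO DOX mice stand for their group. Without KO DOX mouse 19 or 20 the interaction was -1.12 or -1.22 for Lyve1 and -0.99 or -0.95 for Mrc1, none past the threshold. With all 12 libraries the main edgeR test called none of these 4 genes, but other tests did. DESeq2 called Lyve1 (adjusted p = 0.0496) and Mrc1 (adjusted p = 0.0245). Limma-voom called Lyve1 (adjusted p = 0.0105), Mrc1 (0.00726), Cd163 (0.0203) and F13a1 (0.0263). Without a filter on low counts edgeR also called all 4 (3.7% of all genes). Whether a difference between the genotypes is called in them therefore depends on the test and on KO DOX mouse 18.

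Genes around these markers were read from lists written for this description. Of 9 growth factor and receptor genes, Csf3r, the granulocyte growth factor receptor, rose by 1.33 (adjusted p = 0.0173) and Csf2ra fell by 0.59 (adjusted p = 0.0337) with DOX in WT. Csf1, the main ligand of Csf1r, had 32.5 ± 8.04 CPM in WT DOX hearts and 37.2 ± 6.28 CPM in WT vehicle hearts, and its second ligand Il34 differed by -0.08. Of 9 tested chemokines 0 were called with DOX in WT. Ccl2, the ligand of Ccr2, differed there by -0.52 (adjusted p = 0.271). It had 5.06, 4.98 and 5.21 CPM in KO vehicle hearts, against 1.74, 2.66 and 1.75 CPM in WT vehicle hearts, all higher, by 1.30 (SE 0.32, adjusted p = 0.0482). Of 12 transcription factors, Nr4a1, needed by patrolling monocytes and also an immediate early gene of many cells, rose by 2.18 (adjusted p = 0.00941), at 78.5, 176 and 49.5 CPM in WT DOX hearts, against 16.1, 26.1 and 24.4 CPM in WT vehicle hearts. It fell by 2.48 in KO DOX against WT DOX hearts (adjusted p = 0.0186). Spi1, the gene of PU.1, differed by -0.25 (adjusted p = 0.591) with DOX in WT.

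Further resident-type genes had 1 call of 11 tested with DOX in WT. It was Siglec1, the sialic acid receptor CD169, at 4.46, 8.34 and 6.74 CPM in WT DOX hearts, against 1.42, 1.17 and 1.51 CPM in WT vehicle hearts. All WT DOX mice were above, by 2.25 (SE 0.35, adjusted p = 0.00887). In KO vehicle hearts it had 4.75, 5.81 and 4.4 CPM, and it rose against WT vehicle by 1.87 (SE 0.35, adjusted p = 0.0234). With DOX in KO hearts Siglec1 differed by -0.06. Further monocyte genes had 3 calls of 12, all higher with DOX in WT. Chil3, a chitinase-like protein of monocytes and neutrophils, had 1.15, 13.1 and 9.3 CPM in WT DOX hearts, against 0.089, 0 and 0.278 CPM in WT vehicle hearts, a log2 fold change of 6.00 (SE 0.96, adjusted p = 0.00887). The guanine deaminase gene Gda rose by 0.64 (adjusted p = 0.0202). Of 14 lipid and lysosome genes, the cholesterol exporter Abca1 rose by 0.89 (adjusted p = 0.0228), the acid lipase Lipa rose by 0.42 (adjusted p = 0.028) and the fatty acid carrier Fabp5 fell by 1.13 (adjusted p = 0.0139). With DOX in KO hearts 0 genes of these lists were called.

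Other cell types of the heart were read beside these genes. With DOX in WT hearts, endothelial markers fell in 4 of 8 tested, led by Egfl7 at -0.96, Tie1 at -0.54 and Kdr at -0.81. Erythroid genes fell there in 5 of 5, among them Hbb-bs at -11.19. Hbb-bs had 0.0719, 0 and 0 CPM in WT DOX hearts, so the size of its fall is uncertain. The erythroid sum of 6 genes was 0.144 to 0.395 CPM in WT DOX hearts, against 50.8 to 172 CPM in WT vehicle hearts. The cardiomyocyte gene Tnni3 fell by 0.89 and the fatty acid carrier Fabp4, an adipocyte and capillary gene, by 0.98, each the only call of its list. Of 8 fibroblast, 5 atrial, 5 mesothelial, 5 mast cell and 1 lymphoid gene tested, 0 were called. In KO vehicle against WT vehicle hearts, Cxcr2 rose by 3.82 and Gda by 0.77, Fabp5 fell by 1.02 and Fabp4 by 0.89, Egfl7 fell by 0.74 and Kdr by 0.97, and the calcium channel gene Ryr2 rose by 0.87. In KO DOX against WT DOX hearts, S100a8 fell by 2.90 and S100a9 by 2.43. The part of these cell types in the members' levels was not tested.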

How the data were processed

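Polyadenylated RNA from 12 mouse hearts was sequenced with a stranded kit, per the labels' protocols. The files deposited by the authors hold raw counts, whole numbers for each gene symbol of a library. Named in the submitters' processing notes are Subread 1.6.4, featureCounts, STAR 2.7.0f and fastp 0.20.0. Strand setting, annotation, genome build and the treatment of reads matching several places were not given in the sources used here.

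Counts were analysed in R 4.3.3 with edgeR 4.0.16. Genes passing filterByExpr by group, 14757 of 55453, were scaled by TMM and fitted with 1 mean per group over all 12 libraries, so that the groups share 1 estimate of spread. Comparisons were made by edgeR's quasi-likelihood test, p-values were adjusted by Benjamini-Hochberg across the 14757 genes, and the threshold was 0.05. Standard errors were derived from F, and p-values measure the spread between separate mice. The 5 comparisons were DOX against vehicle in each genotype, KO against WT in each treatment, and their interaction. Mouse numbers differ between groups, so no pairing exists. No pair of libraries agreed within sampling noise: the lowest chi-square per gene between libraries was 8.22. WT DOX mouse 21 was at 73.5 and 76.5 from its group mates, but at 18.1 from KO DOX mouse 20 and 24.4 from WT vehicle mouse 1. WT vehicle mouse 2 was at 162 and 97.8 from its group mates. Without WT DOX mouse 21, genes called made up 25.6% for DOX in WT, 4.84% for KO under DOX and 3.43% for the interaction. With all libraries these shares were 18.6%, 0.42% and 0.21%. The cause was not tested. The recruited and resident markers were set against each other as mean log2(CPM + 0.5), with no test. Positions, exon lengths and overlaps come from GENCODE M21 by symbol.

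The members, the 18 other lists and the alternatives were chosen with earlier results of these data known. All 37 members are accounted for: called members and the 6 resident and recruited markers by library, the others by role, and of the other lists up to 3 called genes with the smallest p, of which 1 is not reported here. Values of further genes by library (Mrc1, F13a1, Maf and others) were given after their values were seen. Alternatives were DESeq2's size factors, no TMM, no filter, a minimum of 1 CPM in 3 libraries, limma 3.58.1 (voom, quality weights), DESeq2 1.42.0, fitting only the 2 groups in question, a suffix in the titles as covariate, each library left out, both libraries high in atrial transcripts left out and, added after seeing the data, WT vehicle mouse 2 and KO DOX mouse 18 left out.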

Additional observations from a re-analysis of the deposited data

Results flagged for a closer look

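In 4 genes of the surrounding lists the effect of DOX differed between the genotypes by the interaction test in edgeR, and in 0 of the 36 tested members. The interaction was -1.33 (adjusted p = 0.0289) for Gda, which had 20.6, 13.7 and 17.7 CPM in KO DOX hearts, 24.8, 30.4 and 29.1 CPM in KO vehicle hearts, 24.3, 29.7 and 22.9 CPM in WT DOX hearts and 16.8, 17.2 and 15.6 CPM in WT vehicle hearts. For the neutrophil markers it was -4.84 for S100a8, -4.35 for S100a9 and -5.98 for Cxcr2 (adjusted p = 0.0288 for each), and Cxcr2 had 0 counts in WT vehicle mouse 2.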

How the results depend on the processing

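No paired analysis was possible because the mouse numbers are not shared between groups. The 5 members called for DOX in WT became, with the share of all genes called in brackets, 3 without TMM scaling (18.9%), 17 with no filter on low counts (11.8%), 8 with DESeq2 (24.4%), 16 with limma-voom (37.8%), 0 in the fit of the 2 groups (0.141%) and 2 with the title suffix as covariate (10.8%), and leaving out 1 library gave 0 to 10. None of the 5 changed sign under any alternative run. The other comparisons had 0 calls in the main edgeR fit of all libraries. For DOX in KO, no filter gave 5 (1.04%), limma-voom 1 (0.596%), leaving out WT vehicle mouse 2 and KO DOX mouse 18, chosen after seeing the data, gave 1 (0.101%), and leaving out 1 library 0 to 1. For KO under vehicle, no filter gave 7 (7.06%), DESeq2 2 (13.5%), limma-voom 10 (35.1%), the 2-group fit 3 (1.57%), leaving out the 2 atrial-high libraries 1 (0.457%), leaving out WT vehicle mouse 2 and KO DOX mouse 18 gave 2 (0.884%), and leaving out 1 library 0 to 3. For KO under DOX the values in that order, without the 2-group fit, were 13 (3.9%), 2 (3.34%), 6 (6.71%), 1 (0.161%) and 3 (0.297%), and leaving out 1 library gave 0 to 4. For the interaction they were 9 (3.7%), 2 (2.58%), 10 (13.9%), 1 (0.0134%) and 3 (0.513%), and 0 to 4. The difference of recruited less resident markers, 0.04 in WT, was 0.53 with a pseudocount of 0.1 CPM, -0.16 with 2 CPM, 0.35 without Lyve1, -0.22 without Ly6c2 and -0.08 to 0.17 with 1 library left out. In KO, 0.16 became -0.01 without Lyve1 and -0.09 to 0.40 with 1 library left out. The causes of these changes were not tested. Genes under about 1 CPM, among them Ly6c2, Plac8 and Spp1, rest on few counts per library, which limits their precision.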
